A study of Mus musculus with 12 samples.

Results

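The collagen chain genes of the mouse were examined in 4 groups of brain-derived cells. A gene was taken as a collagen chain gene if it was protein-coding and its name was made of Col, a number, the letter a and a further number. This gave 44 genes among the 55862 genes of the expression table, of which 21926 were protein-coding. A total of 32 of the 44 genes had a mean of at least 1 FPKM in at least 1 group, FPKM being fragments scaled to gene length and library size, and each of these 32 is described here. The other 12 stayed below 1 FPKM in every group mean.

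The study compared astrocytes before and after sphere culture, with cells taken directly from the brain as a reference, and RNA of 12 samples was sequenced, 3 in each group. The labels give the strain C57BL/6 for all samples, while the methods give C57BL/6 for the astrocytes and C57BL/6J for both NPC groups. ASTs were primary cortical astrocytes from pups in the first days after birth, grown as a monolayer with fetal bovine serum after the meninges had been taken off, and were collected at day 0 of the sphere culture. A-iSCs were such astrocytes after 5 days of incubation as spheres on agarose. No monolayer kept for those 5 days is among the samples, so sphere form and further time in culture cannot be told apart. P56-NPCs were cells dissociated from the subependymal zone of adult animals (postnatal day 56). P0-NPCs were cells dissociated from the hippocampus on the day of birth. The methods name no sort for a marker in either NPC suspension. Nothing in the labels says that the 3 samples of a group came from separate animals or cultures, so the p-values measure the spread between these samples, which may be technical.

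Collagens are proteins of the extracellular matrix in which chains with repeated Gly-X-Y triplets wind into a triple helix. Fibrillar collagens form the fibers of connective tissue, collagen IV forms the sheet of basement membranes, and the FACIT collagens (fibril-associated collagens with interrupted triple helices) sit on the surface of fibrils. In the healthy brain, collagens are known mainly from the meninges, the basement membranes of blood vessels and the choroid plexus, and little fibrillar collagen lies between neurons.

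Promoter sequences are shown for a fibrillar chain that was higher in P0-NPCs than in ASTs (Col3a1), a fibrillar chain that was lower (Col5a1), and both chain genes of collagen XI, Col11a1 and Col11a2, whose levels differed between A-iSCs and ASTs in opposite directions. These 4 were chosen after their values were seen. Each sequence is the 250 bases before the RefSeq transcription start on build GRCm38.p6, printed 5′ to 3′ on the plus strand, on which all 4 genes lie. Capitals mark the letters of the TATA box (TATAAA), of the CCAAT box and of the GC box (GGGCGG) on either strand, so that a motif of the other strand appears as its reverse complement. The windows lie at chr1:45311288-45311537 for Col3a1, chr2:27886175-27886424 for Col5a1, chr3:114030290-114030539 for Col11a1 and chr17:34038888-34039137 for Col11a2, whose RefSeq start differs from the gene start of 34039437 in the expression table.
Col3a1: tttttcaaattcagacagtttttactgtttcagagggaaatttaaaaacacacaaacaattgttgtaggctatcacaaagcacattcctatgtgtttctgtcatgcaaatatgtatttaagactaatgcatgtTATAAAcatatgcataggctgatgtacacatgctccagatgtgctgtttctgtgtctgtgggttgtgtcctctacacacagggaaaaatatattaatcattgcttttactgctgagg
Col5a1: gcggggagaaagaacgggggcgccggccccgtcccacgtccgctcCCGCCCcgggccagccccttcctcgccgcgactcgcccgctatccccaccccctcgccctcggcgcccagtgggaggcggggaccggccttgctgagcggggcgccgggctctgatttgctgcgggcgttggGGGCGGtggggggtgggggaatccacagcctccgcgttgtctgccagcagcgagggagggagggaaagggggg
Col11a1: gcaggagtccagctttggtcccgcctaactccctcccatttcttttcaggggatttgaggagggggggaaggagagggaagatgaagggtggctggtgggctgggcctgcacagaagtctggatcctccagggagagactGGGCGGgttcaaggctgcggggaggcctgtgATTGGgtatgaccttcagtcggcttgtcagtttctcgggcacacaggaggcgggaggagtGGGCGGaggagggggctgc
Col11a2: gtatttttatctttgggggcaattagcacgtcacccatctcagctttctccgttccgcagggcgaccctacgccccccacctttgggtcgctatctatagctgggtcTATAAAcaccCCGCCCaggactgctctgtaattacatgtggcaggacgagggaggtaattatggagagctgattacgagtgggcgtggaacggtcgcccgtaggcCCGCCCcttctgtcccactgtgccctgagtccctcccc

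The Col3a1 window held TATAAA at position -117 and neither of the other motifs, counted back from the start. The Col5a1 window held GGGCGG on both strands and no TATAAA. The windows of the collagen XI genes each held GGGCGG at 2 positions, with a CCAAT on the opposite strand in Col11a1 and a TATAAA at -143 in Col11a2. RefSeq windows of 35 of the 44 genes were found, 38 windows in all. Over both strands GGGCGG was present in 22 of these 38 (57.9%) and in 32.7% of 32851 promoter windows of the same length, CCAAT in 34.2% against 33.8%, and TATAAA in 13.2% against 12.4%. A match is a description of the letters in the window and not a binding site.

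Summed over the 44 genes, collagen expression was 660 ± 120 FPKM in ASTs (SD, n = 3), 114 ± 3.46 in A-iSCs, 76.0 ± 6.00 in P56-NPCs and 386 ± 32.5 in P0-NPCs. The lowest AST, replicate 2, was at 523 FPKM and the highest P0-NPC at 423, the lowest P0-NPC was at 363 and the highest A-iSC at 118, and the lowest A-iSC was at 112 and the highest P56-NPC at 79.8, so the 4 groups did not overlap. The mean of the ASTs was 5.79 times that of the A-iSCs. Counted as a share of all fragments, which does not depend on the scaling between samples, collagen genes took 0.521%, 0.0971%, 0.0358% and 0.350% of the fragments in the same order of groups. The mean shares of the ASTs and the A-iSCs differed 5.37-fold. Mitochondrial fragments, which count toward the total, were 16.5% to 17.6% in the P56-NPCs and 2.94% to 7.03% in the other samples, and their part in the collagen shares was not tested.

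**Figure D1:**
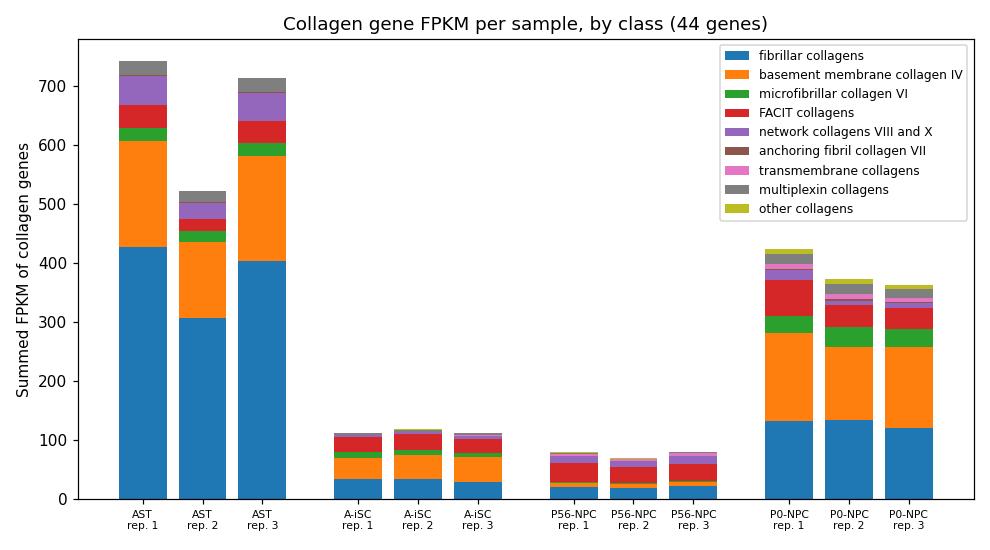
Summed FPKM of the 44 collagen genes (vertical axis) in each of the 12 samples, stacked by collagen class. The ASTs reach 523 to 743 FPKM and the P0-NPCs 363 to 423, while the A-iSCs and P56-NPCs stay at or below 118.

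The makeup of the sum differed as well. In ASTs, 57.6% ± 0.998 of the collagen FPKM came from fibrillar genes and 24.6% ± 0.340 from collagen IV, whereas in A-iSCs the fibrillar share was 28.2% ± 1.85, collagen IV made up 34.6% ± 2.34 and FACIT genes 22.4% ± 0.4496 (SD, n = 3). In P56-NPCs the FACIT genes led with 38.8% ± 2.41, and in P0-NPCs collagen IV with 35.4% ± 2.25 stood beside the fibrillar genes with 33.5% ± 2.48. Counted in fragments, to which long genes give more, fibrillar genes led in every group. They took 0.0348% of all fragments in A-iSCs against 0.0305% for collagen IV, 0.0137% in P56-NPCs against 0.00947% for FACIT genes, and 0.145% in P0-NPCs against 0.115% for collagen IV. The genes with the highest mean were Col1a1 and Col5a2 in ASTs (158 and 147 FPKM), Col4a5 and Col5a2 in A-iSCs (29.5 and 10.9), Col9a3 and Col8a2 in P56-NPCs (20.1 and 10.51), and Col4a1 and Col4a2 in P0-NPCs (70.8 and 51.4). With the length of the longest coding transcript in place of the deposited gene length, Col5a2 led Col1a1 in ASTs (213 and 175 FPKM), Col1a2 and Col3a1 came between Col4a1 and Col4a2 in P0-NPCs, and the 2 leading genes of the other groups and their order did not change. Of the 32 genes, 12 were highest in ASTs, 2 in A-iSCs, 5 in P56-NPCs and 13 in P0-NPCs. Among all 16568 genes that reached 1 FPKM in a group mean, 30.7%, 16.5%, 26.3% and 26.6% were highest in these groups.

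Between 17077780 and 24452419 fragments were counted per library. A count of 3, taken as the floor, was worth 0.103 to 0.187 FPKM in a gene 1 kilobase long. These limits cover counting error only. AST replicate 2 and A-iSC replicate 3 stood apart from the other samples of their groups. The deviation of a gene from its group mean correlated across 16568 genes with gene length, with a Spearman rho of -0.44 in AST replicate 2 and 0.35 and 0.38 in the other ASTs, and of 0.33 in A-iSC replicate 3 against -0.28 and -0.23. Genes are not independent replicates, and the 3 deviations of a group share 1 mean. The median length of the collagen genes was 7542.5 bases and that of all genes at 1 FPKM or more 3785. AST replicate 2 was the lowest of the ASTs, alone or tied, for 23 of the 32 collagen genes. The part of gene length in the collagen values was not tested. Some counts and calls are also given without these libraries, while sums, means and folds of mean FPKM include them.

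RNA of other cell types differed between the groups. The 8 astrocyte markers summed to 143 to 161 FPKM in ASTs, 1211 to 2467 in A-iSCs, 2834 to 3071 in P56-NPCs and 238 to 303 in P0-NPCs. The 6 microglial markers summed to 96.5 to 127, 1084 to 1494, 435 to 458 and 63.6 to 73.5 in the same order. Of the 9 markers of meningeal and perivascular fibroblasts, 4 had a mean of at least 1 FPKM in ASTs, 2 in A-iSCs, 2 in P56-NPCs and 9 in P0-NPCs. Their sums were 34.4 to 35.2, 7.43 to 9.42, 2.48 to 9.14 and 73.2 to 91.8 FPKM. In ASTs this sum was mostly Ogn with 25.0 FPKM, followed by Foxc1, Crabp2 and Aldh1a2 with 4.22, 3.03 and 2.16. These 4 were called lower in A-iSCs, with means of 4.75, 2.24, 0.776 and 0.215 FPKM, and Crabp2 and Aldh1a2 met the filter described below through the ASTs alone. Igf2 was at 0 in every AST, and Dcn and Lum, which encode small proteoglycans of the matrix, had means of 0.248 and 0.0374. The 8 mural markers summed to 1717 to 2144 FPKM in ASTs, nearly all from the smooth muscle actin gene Acta2, and to 36.0 to 65.2 in A-iSCs, 15.3 to 25.8 in P56-NPCs and 63.0 to 72.5 in P0-NPCs. The 8 endothelial markers summed to 79.6 to 84.8 FPKM in P0-NPCs and to 2.59 to 7.38 in the other groups, with Cldn5 at 0 in every AST. The choroid plexus markers, led by Ttr, reached 1487 to 3168 FPKM in P56-NPCs and 736 to 3796 in P0-NPCs, and 1.64 to 4.78 in the cultured groups. Oligodendrocyte markers summed to at least 10245 FPKM in P56-NPCs and to at most 9.07 in every other group. The 6 neuron markers summed to 88.1 to 124 FPKM in ASTs, 47.5 to 63.6 in A-iSCs, 195 to 238 in P56-NPCs and 761 to 937 in P0-NPCs. In ASTs most of that came from Stmn2 and Tubb3, and Rbfox3, Snap25 and Syt1 had means below 1. In such bulk samples, fewer cells of a type and less RNA per cell cannot be told apart. The part of these cell types in the collagen values was not tested.

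Differences were tested with limma on log2(FPKM + 1), 2 groups at a time, over all genes with a mean of at least 1 FPKM in either group, and a gene was called at an adjusted p under 0.05. Since 1 FPKM is added to both sides, these log2 fold changes understate the change of low genes. In A-iSCs against ASTs, 25 collagen genes passed the filter. Of these, 18 were lower and 6 higher in A-iSCs, where 54.8% of all 14087 tested genes were called, 29.6% lower and 25.2% higher. The median log2 fold change was -1.06 over the 25 collagen genes and -0.06 over all tested genes. Leaving out AST replicate 2 gave the same 2 counts, and leaving out A-iSC replicate 3 gave 18 lower and 7 higher. When the libraries were scaled by fragments counted, 60.4% of all calls in this comparison were higher instead of 46.0%, and the collagen counts were 18 lower and 8 higher. A filter through the higher group favors genes that differ, so these counts describe the 25 genes only. A gene with a mean below 1 FPKM in 1 of the groups was tested because the other was higher, so that the filter set its direction, and the values of such genes are given below without p-values. They were 9 of the 25 collagen genes, 4 higher and 5 lower, and 2465 of the 14087 genes tested. Among the 16 collagen genes at 1 FPKM or more in both groups, 13 were lower and 2 higher, beside 29.9% and 19.9% of the 11622 genes at that level in both groups.

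P56-NPCs and P0-NPCs were compared with the same ASTs. Of 27 tested collagen genes, 19 were lower and 8 higher in P56-NPCs, beside 39.8% and 39.1% of all genes tested (78.9% called in either direction). Of 29 tested in P0-NPCs, 10 were lower and 14 higher, beside 40.9% and 38.1% (79.0% in either direction). The medians of the collagen genes were -1.68 and 0.32 and those of all genes -0.03 and -0.07. With scaling by fragments counted, the share of higher calls among all calls moved from 49.6% to 37.7% in P56-NPCs and from 48.2% to 59.4% in P0-NPCs, and the collagen genes then gave 19 lower and 6 higher in the former and 10 lower and 17 higher in the latter. In P56-NPCs the filter was met through 1 group alone by 17 of the 27 genes (6 higher, 11 lower). In P0-NPCs this held for 10 of the 29 (8 higher, 2 lower). Of all genes tested, 25.9% and 25.3% did so. Of the 10 collagen genes at 1 FPKM or more in both P56-NPCs and ASTs, 8 were lower and 2 higher. For all such genes the shares were 43.6% and 31.0%. Of the 19 at that level in both P0-NPCs and ASTs, 42.1% were lower and 31.6% higher, near the 44.6% and 29.7% of all such genes. The medians above include genes whose direction the filter set.

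**Figure D2:**
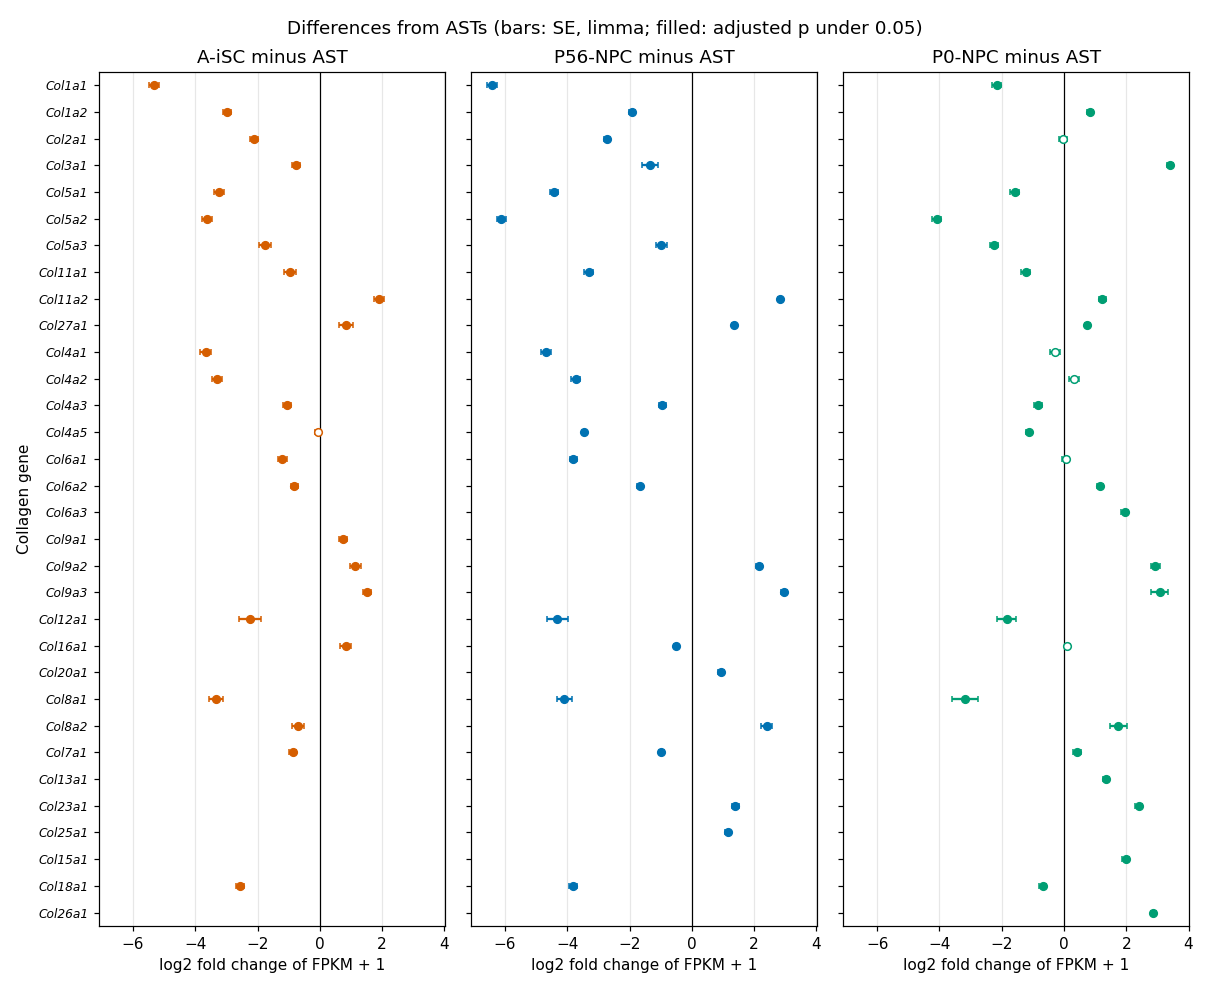
Difference in log2(FPKM + 1) from ASTs (horizontal axis) for each tested collagen gene in A-iSCs, P56-NPCs and P0-NPCs, with bars for the standard error and filled points for an adjusted p under 0.05. The 3 panels share the AST samples, and the smallest values belong to Col1a1 in A-iSCs (-5.32) and in P56-NPCs (-6.43) and to Col5a2 in P0-NPCs (-4.08). Filled points include genes that met the filter through 1 group alone, which sets their direction, among them Col1a1 in P56-NPCs.

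Among the fibrillar genes, 8 of the 10 tested had a lower level in A-iSCs and 2 a higher level than in ASTs, beside 29.6% and 25.2% of all genes. Both higher genes and 2 of the lower ones met the filter through 1 group alone. Col1a1, at chr11:94936224-94953042, encodes the chain that is present as a pair in each collagen I molecule. It was at 178, 131 and 164 FPKM in the ASTs, 3.00, 3.54 and 2.39 in the A-iSCs, 0.632, 0.683 and 1.22 in the P56-NPCs and 33.7, 38.0 and 31.0 in the P0-NPCs. Every AST was above every other sample and the groups did not overlap. The mean was 52.9-fold lower in A-iSCs than in ASTs, with a log2 fold change of -5.32 ± 0.16 (SE, adjusted p = 3.54e-06), and 4.61-fold lower in P0-NPCs (-2.17 ± 0.14, adjusted p = 3.26e-06).

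Col5a2 and Col5a1 encode chains of collagen V, which starts the assembly of collagen I fibrils. Col5a2 was at 166, 115 and 161 FPKM in the ASTs, 11.3, 11.5 and 10.01 in the A-iSCs, 1.12, 0.961 and 1.19 in the P56-NPCs and 7.91, 7.58 and 7.40 in the P0-NPCs. Here the A-iSCs were above the P0-NPCs, the reverse of Col1a1. Col5a1 was at 31.9, 22.9 and 31.5 FPKM in the ASTs, 2.16, 2.47 and 1.80 in the A-iSCs, 0.330, 0.349 and 0.397 in the P56-NPCs and 9.19, 9.26 and 8.09 in the P0-NPCs. Both fell by the same factor of 13.4 from ASTs to A-iSCs, with log2 fold changes of -3.62 ± 0.17 and -3.23 ± 0.16 (adjusted p = 6.88e-06 and 8.48e-06). The exons of Col5a1 overlap those of 2 further annotated genes, and whether the counting used strand is not given in the sources used here.

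Col3a1, the chain of collagen III, had another order of groups. It was at 2.64, 1.99 and 2.55 FPKM in the ASTs, 0.965, 0.951 and 1.04 in the A-iSCs, 0.0822, 0.0508 and 1.09 in the P56-NPCs and 36.6, 35.5 and 32.5 in the P0-NPCs. All 3 P0-NPC samples stood far above the rest, and P56-NPC replicate 3 was apart from the other P56-NPCs. That same sample had the highest Dcn of its group with 3.18 FPKM against 1.43 and 0.416. Col3a1 was 14.6-fold higher in P0-NPCs than in ASTs (log2 fold change 3.41 ± 0.10, adjusted p = 7.75e-08) and 2.43-fold lower in A-iSCs than in ASTs (-0.77 ± 0.12), where it met the filter through the ASTs alone. Its exons overlap the annotated gene Gm47302.

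Collagen XI limits the width of fibrils, and its chains differed in the order of the groups. Col11a1 was at 15.3, 10.1 and 14.9 FPKM in the ASTs, 5.89, 5.51 and 7.81 in the A-iSCs, 0.452, 0.445 and 0.372 in the P56-NPCs and 5.07, 4.75 and 5.28 in the P0-NPCs. Col11a2 was at 0.390, 0.323 and 0.321 FPKM in the ASTs, 4.70, 4.66 and 3.02 in the A-iSCs, 8.76, 8.63 and 8.19 in the P56-NPCs and 2.23, 2.52 and 1.77 in the P0-NPCs. The ASTs were thus the highest group for Col11a1 and the lowest for Col11a2, with the P56-NPCs the other way round. Between ASTs and A-iSCs, Col11a1 fell 2.10-fold (log2 fold change -0.95 ± 0.19, adjusted p = 0.00457) and Col11a2, which met the filter through the A-iSCs alone, was 11.97-fold higher (1.91 ± 0.16).

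The remaining fibrillar genes also split. Col1a2, the partner chain of collagen I, had means of 15.0 FPKM in ASTs, 1.03 in A-iSCs, 3.21 in P56-NPCs and 27.4 in P0-NPCs. It was 14.6-fold lower in A-iSCs than in ASTs (adjusted p = 5.33e-06) and, unlike Col1a1, higher in P0-NPCs than in ASTs (log2 fold change 0.83 ± 0.11, adjusted p = 0.00015). Col2a1, the chain of the main collagen of cartilage, averaged 6.78 FPKM in ASTs and 6.66 in P0-NPCs, a log2 difference of -0.03 (95% interval -0.35 to 0.29, adjusted p = 0.838) whose sign turned under several alternatives, and it was 8.42-fold lower in A-iSCs. Col5a3 ranged from 6.03 to 8.61 FPKM in ASTs and from 0.953 to 1.97 in A-iSCs and was lower there (-1.77 ± 0.19, adjusted p = 0.000242). Col27a1 ranged from 0.201 to 0.236 FPKM in ASTs and from 0.550 to 1.75 in A-iSCs, with replicate 3 lowest, and met the filter through the A-iSCs alone (0.84 ± 0.21).

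**Figure D3:**
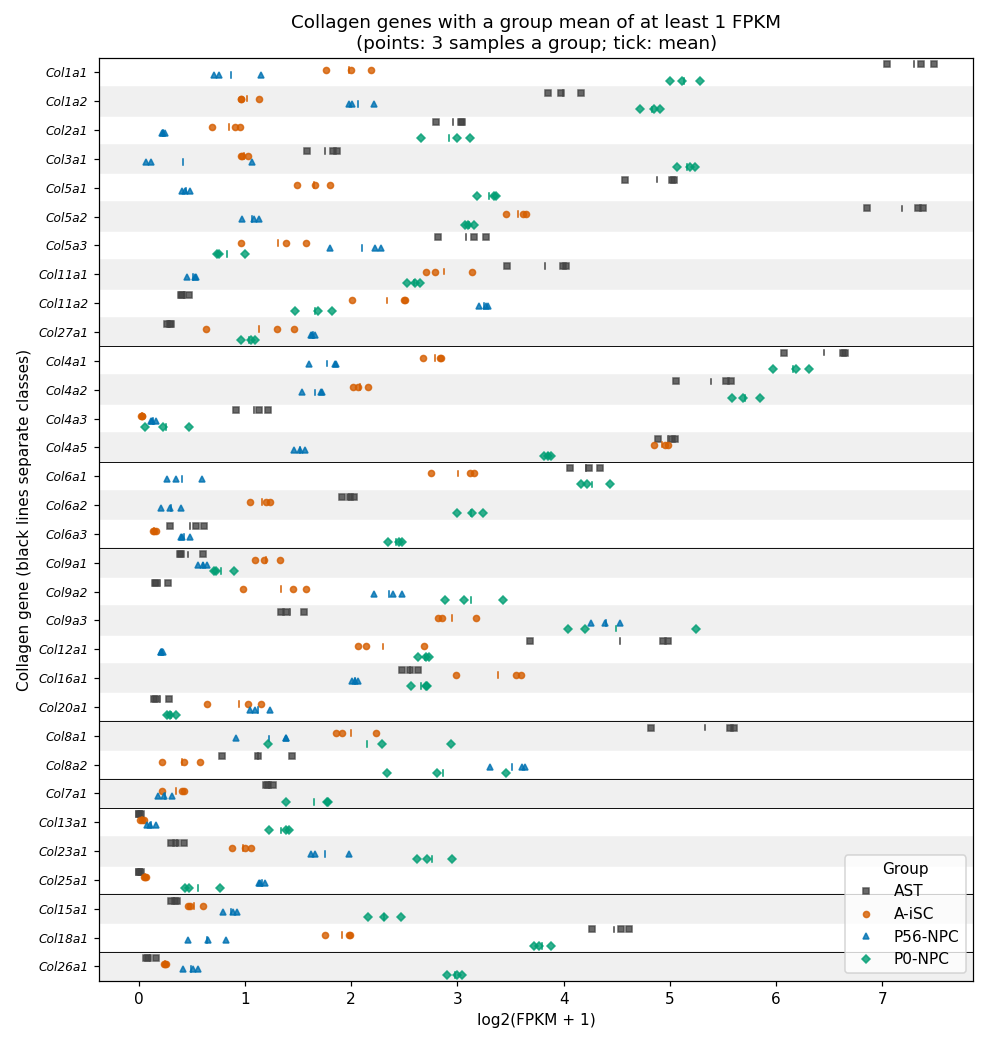
Level of each of the 32 collagen genes with a group mean of at least 1 FPKM, as log2(FPKM + 1) (horizontal axis), with 1 point per sample, a tick at the mean of each group, and black lines between classes. Col1a1 and Col5a2 are highest in the ASTs, Col4a5 overlaps between ASTs and A-iSCs, and Col26a1 exceeds 1 only in the P0-NPCs.

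The collagen IV genes lie in head-to-head pairs that are transcribed away from each other. Col4a1 (chr8:11198423-11312826, minus strand) and Col4a2 (chr8:11312805-11449287, plus strand) encode the common chains of basement membranes, and their annotated exons overlap at the starts. Col4a1 was at 99.2, 66.4 and 97.8 FPKM in the ASTs, 5.40, 6.13 and 6.18 in the A-iSCs, 2.63, 2.04 and 2.59 in the P56-NPCs and 78.6, 61.9 and 71.9 in the P0-NPCs. Col4a2 was at 46.7, 32.4 and 45.2 FPKM in the ASTs, 3.04, 3.48 and 3.19 in the A-iSCs, 2.30, 1.91 and 2.27 in the P56-NPCs and 56.6, 47.0 and 50.7 in the P0-NPCs. ASTs and P0-NPCs overlapped for Col4a1 only, and both groups were well above A-iSCs and P56-NPCs. The fall from ASTs to A-iSCs was 14.9-fold for Col4a1 and 12.8-fold for Col4a2 (log2 fold changes -3.67 ± 0.17 and -3.31 ± 0.16, adjusted p = 7.55e-06 and 7.56e-06). P0-NPCs against ASTs gave -0.29 for Col4a1 (95% interval -0.70 to 0.12, adjusted p = 0.161) and 0.32 for Col4a2 (-0.04 to 0.67, adjusted p = 0.0881). Without AST replicate 2, Col4a1 was called lower in P0-NPCs at -0.48 (adjusted p = 0.00527), and with scaling by fragments counted Col4a2 was called higher at 0.60 (adjusted p = 0.0103).

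Col4a5, which encodes a chain found in the basement membranes of kidney and other organs, did not follow. It was at 31.4, 28.7 and 32.0 FPKM in the ASTs, 27.8, 30.0 and 30.7 in the A-iSCs, 1.86, 1.75 and 1.96 in the P56-NPCs and 13.4, 13.7 and 13.1 in the P0-NPCs. ASTs and A-iSCs overlapped, and both stood above the other groups. Their log2 difference was -0.06 (95% interval -0.31 to 0.20, adjusted p = 0.683), which was 0.15 with scaling by fragments counted. Its neighbor Col4a6 stayed low, at 0.554, 0.0804 and 0.452 FPKM in the ASTs, 0.261, 0.322 and 1.28 in the A-iSCs, 0.0217, 0 and 0.0152 in the P56-NPCs and 0.186, 0.194 and 0.178 in the P0-NPCs. A-iSC replicate 3 was the highest of all 12 samples for Col4a6, which was below the filter in every comparison.

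Col4a3 and Col4a4 form the last pair and encode chains of the kidney filter. Col4a3 was at 1.32, 0.886 and 1.19 FPKM in the ASTs, 0.0199, 0.0169 and 0.0225 in the A-iSCs, 0.0925, 0.119 and 0.0853 in the P56-NPCs and 0.386, 0.0448 and 0.171 in the P0-NPCs. In A-iSCs these values rest on 4, 4 and 6 fragments, against 179 to 221 in the ASTs. The log2 fold change of Col4a3 was -1.06 ± 0.12, and the filter was met through the ASTs alone. Col4a4 was at 0.950, 0.688 and 0.923 FPKM in the ASTs, 0.257, 0.174 and 0.232 in the A-iSCs, 0.331, 0.276 and 0.435 in the P56-NPCs and 0.713, 0.541 and 0.479 in the P0-NPCs. It was highest in the ASTs too but did not reach the filter.

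Collagen VI forms beaded microfilaments, for which Col6a1 and Col6a2 each give a chain and Col6a3 a longer one. Col6a1 was at 19.3, 15.7 and 17.9 FPKM in the ASTs, 7.69, 7.91 and 5.75 in the A-iSCs, 0.276, 0.199 and 0.513 in the P56-NPCs and 16.9, 20.6 and 17.6 in the P0-NPCs. Col6a2 was at 3.07, 2.98 and 2.77 FPKM in the ASTs, 1.30, 1.36 and 1.07 in the A-iSCs, 0.159, 0.224 and 0.314 in the P56-NPCs and 6.96, 8.47 and 7.80 in the P0-NPCs. Both were lowest in P56-NPCs. Both were lower in A-iSCs than in ASTs (log2 fold changes -1.21 ± 0.15 and -0.82 ± 0.11, adjusted p = 0.000429 and 0.000657), while in P0-NPCs Col6a2 was higher than in ASTs (1.15 ± 0.09, adjusted p = 1.12e-05) and Col6a1 differed by 0.06 (95% interval -0.20 to 0.31, adjusted p = 0.66), or by 0.33 with scaling by fragments counted (adjusted p = 0.0331). Col6a3 was at 0.454, 0.223 and 0.531 FPKM in the ASTs, 0.1203, 0.102 and 0.0967 in the A-iSCs, 0.395, 0.323 and 0.320 in the P56-NPCs and 4.47, 4.10 and 4.57 in the P0-NPCs. It was above 1 FPKM in P0-NPCs only, 10.9-fold higher than in ASTs, a direction that the filter sets.

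Of the 5 FACIT genes tested in A-iSCs against ASTs, 4 were higher and 1, Col12a1, was lower, beside 25.2% and 29.6% of all genes, and 2 of the higher ones, Col9a1 and Col9a2, met the filter through the A-iSCs alone. The summed FPKM of the FACIT genes was 32.0 ± 10.6 in ASTs and 25.6 ± 0.722 in A-iSCs (SD, n = 3), and their share of all fragments was 0.0404% and 0.0202%. Col9a1, Col9a2 and Col9a3 encode the chains of collagen IX, known from the surface of cartilage fibrils. Col9a3 was at 1.53, 1.93 and 1.62 FPKM in the ASTs, 6.03, 6.24 and 8.05 in the A-iSCs, 22.2, 18.2 and 19.9 in the P56-NPCs and 37.0, 15.5 and 17.4 in the P0-NPCs. Col9a2 was at 0.212, 0.112 and 0.122 FPKM in the ASTs, 1.97, 1.74 and 0.976 in the A-iSCs, 4.24, 4.57 and 3.63 in the P56-NPCs and 9.80, 7.37 and 6.37 in the P0-NPCs. ASTs were lowest and both NPC groups highest for these genes. In A-iSCs, Col9a3 was 3.996-fold and Col9a2 10.53-fold higher than in ASTs (log2 fold changes 1.52 ± 0.14 and 1.14 ± 0.17, adjusted p = 9.29e-05 for Col9a3). Col9a1 differed from ASTs by 0.74 ± 0.13 and, with a mean of 1.30 FPKM, was highest in A-iSCs, against 0.380 to 0.717 in the other groups. Without strand, reads of Col9a3 and of Tcfl5, whose exons overlap, cannot be told apart. Exons of 9 of the 32 genes overlap another annotated gene, among them also Col4a3, Col7a1, Col15a1 and Col20a1.

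P0-NPC replicate 1 had the highest Col9a3 of all samples and also the highest Ttr, the transthyretin gene of the choroid plexus, with 3747 FPKM against 725 and 2265 in the other P0-NPCs. Among the P56-NPCs, replicate 1 had the highest Col9a3, while Ttr was highest in replicate 3, at 3120 FPKM against 2077 and 1452. Between P0-NPCs and P56-NPCs, Col9a3 differed by 0.10 (95% interval -0.57 to 0.78, adjusted p = 0.755). Without P0-NPC replicate 1 it was called lower in P0-NPCs, at -0.27 (adjusted p = 0.0488). The part of the choroid plexus in these values was not tested.

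Col12a1, a FACIT collagen of tendon and other dense tissue, was at 30.6, 11.9 and 29.6 FPKM in the ASTs, 3.19, 3.40 and 5.45 in the A-iSCs, 0.155, 0.172 and 0.155 in the P56-NPCs and 5.66, 5.52 and 5.20 in the P0-NPCs. AST replicate 2 was far below the other ASTs and still above every sample of the other groups. Col12a1 was 5.99-fold lower in A-iSCs (log2 fold change -2.24 ± 0.36, adjusted p = 0.00166). Col16a1 was at 4.88, 4.56 and 5.18 FPKM in the ASTs, 10.7, 11.1 and 6.94 in the A-iSCs, 3.09, 3.18 and 3.02 in the P56-NPCs and 5.50, 5.56 and 4.91 in the P0-NPCs. It was highest in A-iSCs, 1.97-fold above ASTs (0.83 ± 0.18, adjusted p = 0.00595), and Col9a1 was the other of the 2 genes, among the 32 at 1 FPKM or more, with their highest mean there. Col20a1 ranged from 0.105 to 0.221 FPKM in ASTs and from 1.07 to 1.36 in P56-NPCs, through which alone it met the filter (0.93 ± 0.09), and from 0.559 to 1.23 in A-iSCs, where its mean stayed below the filter.

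The short-chain collagen VIII, a network former of vessels and of the cornea, had chains that were highest in different groups. Col8a1 was at 47.5, 27.3 and 46.4 FPKM in the ASTs, 2.76, 2.63 and 3.69 in the A-iSCs, 1.61, 0.883 and 1.61 in the P56-NPCs and 6.67, 3.89 and 1.33 in the P0-NPCs. Col8a2 was at 1.18, 0.725 and 1.72 FPKM in the ASTs, 0.166, 0.347 and 0.490 in the A-iSCs, 11.2, 8.90 and 11.5 in the P56-NPCs and 9.98, 4.06 and 5.99 in the P0-NPCs. ASTs were highest for Col8a1, and the NPC groups were highest for Col8a2. Col8a1 fell 13.3-fold from ASTs to A-iSCs (log2 fold change -3.33 ± 0.23, adjusted p = 2.78e-05). Col8a2 was 3.61-fold lower in A-iSCs (-0.71 ± 0.19), met the filter through the ASTs alone and was no longer called without A-iSC replicate 1. Col8a2 was 8.70-fold higher in P56-NPCs and 5.53-fold higher in P0-NPCs than in ASTs (adjusted p = 1.25e-05 and 0.000604).

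Transmembrane collagens, whose chains stay anchored in the cell membrane, were low in culture. Col23a1 was at 0.343, 0.275 and 0.235 FPKM in the ASTs, 0.995, 0.836 and 1.09 in the A-iSCs, 2.15, 2.07 and 2.93 in the P56-NPCs and 5.58, 6.72 and 5.15 in the P0-NPCs. The groups rose in this order without overlap. Col13a1, a collagen of the neuromuscular junction, counted 0, 0 and 1 fragments in the ASTs and 1 to 3 in the A-iSCs, and was at 0.0751, 0.0541 and 0.119 FPKM in the P56-NPCs and 1.66, 1.62 and 1.34 in the P0-NPCs. Col25a1, known from neurons, counted 3, 0 and 0 fragments in the ASTs and 10 to 14 in the A-iSCs, and was at 1.28, 1.196 and 1.21 FPKM in the P56-NPCs and 0.349, 0.696 and 0.387 in the P0-NPCs. Each of these passed the filter against ASTs through an NPC group alone, with log2 fold changes of 1.39 for Col23a1 and 1.15 for Col25a1 in P56-NPCs and 1.34 for Col13a1 and 2.40 for Col23a1 in P0-NPCs, which are given without p-values because the filter sets their direction.

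The multiplexins Col18a1 and Col15a1 encode basement membrane collagens, the former being the source of endostatin. Col18a1 was at 23.6, 18.3 and 22.2 FPKM in the ASTs, 2.38, 2.98 and 2.95 in the A-iSCs, 0.566, 0.382 and 0.770 in the P56-NPCs and 13.8, 12.6 and 12.2 in the P0-NPCs. Col15a1 was at 0.235, 0.264 and 0.280 FPKM in the ASTs, 0.383, 0.517 and 0.400 in the A-iSCs, 0.853, 0.736 and 0.899 in the P56-NPCs and 3.97, 4.54 and 3.46 in the P0-NPCs. Col18a1 followed Col4a1 and Col4a2 in being high in ASTs and P0-NPCs and fell 7.71-fold in A-iSCs (log2 fold change -2.56 ± 0.13, adjusted p = 1.01e-05), and Col15a1, which passed the filter through the P0-NPCs alone, was 15.4-fold higher there than in ASTs.

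Of the last 2 genes, Col7a1 encodes the collagen of the anchoring fibrils of skin. It was at 1.40, 1.32 and 1.29 FPKM in the ASTs, 0.347, 0.327 and 0.163 in the A-iSCs, 0.179, 0.133 and 0.242 in the P56-NPCs and 2.43, 2.42 and 1.61 in the P0-NPCs. In A-iSCs against ASTs, where the filter was met through the ASTs alone, its log2 fold change was -0.87 ± 0.11. In P0-NPCs it was higher (0.42 ± 0.12, adjusted p = 0.0142), a call that was lost without P0-NPC replicate 1 (adjusted p = 0.0536). Col26a1 was at 0.0511, 0.0603 and 0.119 FPKM in the ASTs, 0.188, 0.180 and 0.196 in the A-iSCs, 0.423, 0.472 and 0.334 in the P56-NPCs and 6.96, 7.24 and 6.47 in the P0-NPCs. It was above 1 FPKM in P0-NPCs only and passed the filter through them (log2 fold change over ASTs 2.87 ± 0.09).

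A-iSCs were also set against each NPC group. Of 24 tested collagen genes, 14 were higher and 8 lower in A-iSCs than in P56-NPCs, beside 30.1% and 30.9% of all genes (61.0% called in either direction), with a median log2 fold change of 0.69 against 0.03 over all genes. On the log2(FPKM + 1) scale, the highest value was that of Col4a5, 15.9-fold higher in A-iSCs by mean FPKM (3.41 ± 0.09, adjusted p = 3.44e-07), and the lowest that of Col8a2, 31.4-fold lower (-3.11 ± 0.14). Col8a2 was 1 of 12 genes, 8 with a higher and 4 with a lower value, that met the filter through 1 group alone. Of all genes tested, 20.1% did so. Among the 12 collagen genes at 1 FPKM or more in both groups, 6 were higher and 5 lower, beside 30.3% and 25.5% of such genes. With scaling by fragments counted, 74.5% of all calls were higher instead of 49.4%, and the collagen counts were 15 higher and 6 lower. Against P0-NPCs, 6 of 29 tested collagen genes were higher and 19 lower in A-iSCs, beside 31.5% and 33.6% of all genes (65.1% in either direction), with a median of -1.65 against -0.02. Of the 29, 11 met the filter through 1 group alone (2 higher, 9 lower), beside 22.5% of all genes tested. Among the 18 at 1 FPKM or more in both groups, 4 were higher and 10 lower, beside 30.3% and 28.4% of such genes. Col3a1, 1 of the 11, was 35.4-fold lower in A-iSCs (-4.17 ± 0.10), and Col4a5 was 2.20-fold higher (1.08 ± 0.10, adjusted p = 4.64e-05). Both comparisons use the same A-iSC samples. Without A-iSC replicate 3 the counts were 14 and 9 against P56-NPCs and 8 and 20 against P0-NPCs. In that replicate, 17 of the 32 genes had their lowest and 11 their highest value among the A-iSCs.

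Between the NPC groups, 22 of 30 tested collagen genes were higher and 6 lower in P0-NPCs than in P56-NPCs, beside 39.0% and 39.7% of all genes (78.8% called in either direction). The median was 2.02 over the collagen genes and -0.01 over all genes. Col3a1 (85.7-fold), Col6a1 (55.7-fold) and Col1a1 (40.4-fold) were among those higher in P0-NPCs, with log2 fold changes of 4.75 ± 0.25, 3.87 ± 0.11 and 4.26 ± 0.13. These 3 were among 17 genes (14 higher, 3 lower) that met the filter through 1 group alone, which sets their direction. Of all genes tested, 20.8% met it so. Among the 13 collagen genes at 1 FPKM or more in both groups, 8 were higher and 3 lower, beside 38.1% and 38.1% of such genes. Col4a1 (4.39 ± 0.11) and Col4a2 (4.05 ± 0.09) were among these 8. Without P56-NPC replicate 3, Col3a1 was 525-fold higher, with a log2 fold change of 5.07. The 6 lower genes were Col5a3, Col11a2, Col27a1, Col20a1, Col25a1 and Col8a2. Among these, Col8a2 overlapped between the groups (-0.65 ± 0.26, adjusted p = 0.048), and its call was lost without any one of P56-NPC replicates 1, 2 and 3 or of P0-NPC replicates 2 and 3, with adjusted p from 0.0555 to 0.125. With scaling by fragments counted, the share of higher calls over all genes was 73.3% instead of 49.6%, and 2 collagen genes were lower beside 23 higher. The 2 groups differ in age and in brain region, which cannot be told apart.

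Ratios between chains of 1 collagen type are given as a description without a test, and those for collagens XI and VIII were added after the values were seen. Col1a1 stood to Col1a2 as 10.47 ± 0.676 in ASTs, 2.92 ± 0.700 in A-iSCs, 0.259 ± 0.0669 in P56-NPCs and 1.24 ± 0.0554 in P0-NPCs (SD, n = 3). These levels depend on the gene length used, which was 12426 bases for Col1a2 where its longest coding transcript has 5348, and with coding transcripts the means were 4.99, 1.39, 0.123 and 0.593. The order of the groups does not depend on that length. Col4a1 to Col4a2 varied far less, with means of 2.11, 1.83, 1.12 and 1.38. For Col6a1 to Col6a2 they were 6.01, 5.71, 1.42 and 2.37, so that ASTs and A-iSCs lay within their spread of each other. With coding transcripts these were 3.59, 3.41, 0.847 and 1.42, which puts P56-NPCs below 1. Col11a1 to Col11a2 fell from 38.9 ± 7.63 in ASTs to 1.67 ± 0.792 in A-iSCs, and was 0.0495 in P56-NPCs and 2.38 in P0-NPCs. Col8a1 to Col8a2 had means of 35.0, 10.6, 0.128 and 0.616.

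**Figure D4:**
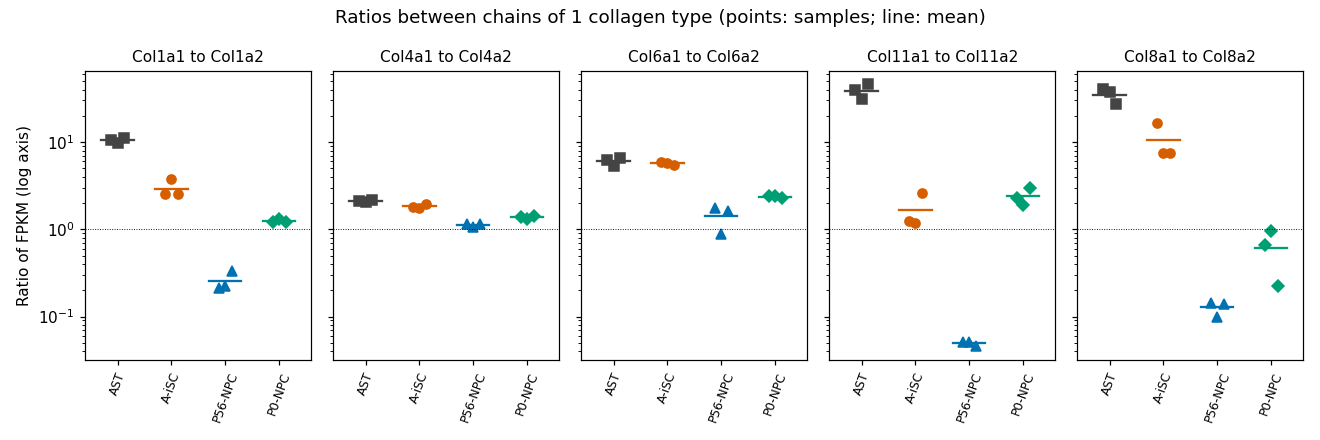
Ratio of the FPKM of 2 chain genes of the same collagen type (vertical log axis) in each sample, with a line at the group mean and a dotted line at 1. Col4a1 to Col4a2 stays between 1.07 and 2.16, while Col11a1 to Col11a2 runs from 0.0454 to 46.4.

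The genes that modify, cross-link, bind and degrade collagens were taken as 5 further lists. Prolyl and lysyl hydroxylases, chaperones and glycosyltransferases act on the chains in the endoplasmic reticulum. Of 19 such genes tested in A-iSCs against ASTs, 10 were lower and 2 higher, beside 29.6% and 25.2% of all genes, with a median log2 fold change of -0.89 beside -0.06 over all tested genes. Serpinh1, the collagen chaperone HSP47, was at 476, 599 and 474 FPKM in the ASTs, 89.6, 88.7 and 69.2 in the A-iSCs, 29.9, 31.2 and 32.5 in the P56-NPCs and 101, 75.4 and 98.6 in the P0-NPCs. It had the smallest value of the list (-2.63 ± 0.17, adjusted p = 2.42e-05), followed by the prolyl isomerase gene Fkbp10 (-2.26 ± 0.12, adjusted p = 1.1e-05). The 2 higher genes were the lysyl hydroxylase gene Plod1 (0.94 ± 0.12, adjusted p = 0.000544) and the galactosyltransferase gene Colgalt2 (0.70 ± 0.10, adjusted p = 0.00107). Another lysyl hydroxylase gene, Plod2, was lower (-1.72 ± 0.11, adjusted p = 1.99e-05).

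Outside the cell, propeptides are removed and the fibrils are cross-linked by lysyl oxidases. Of the 5 processing genes tested, 4 were lower and 1 higher in A-iSCs than in ASTs (median -1.35), beside the same 29.6% and 25.2% of all genes and their median of -0.06. The proteinase enhancer gene Pcolce was lower (-2.48 ± 0.19, adjusted p = 4.72e-05) and the C-proteinase gene Bmp1 higher (0.50 ± 0.18, adjusted p = 0.0457). The other 3 met the filter through the ASTs alone, among them the N-proteinase gene Adamts14 (-2.36 ± 0.13) and Tll1, a relative of Bmp1 (-1.20 ± 0.18). All 5 lysyl oxidase genes were lower (median -2.99), and Lox and Loxl4 met the filter through the ASTs alone. Lox itself was at 104, 87.1 and 95.5 FPKM in the ASTs, 0.748, 0.634 and 0.578 in the A-iSCs, 0.0241, 0.013 and 0.0889 in the P56-NPCs and 5.75, 7.71 and 5.58 in the P0-NPCs. The ASTs were far above all other samples, and the log2 fold change of A-iSCs against ASTs was -5.86 ± 0.11. Loxl2 was lower (-3.65 ± 0.11, adjusted p = 3.54e-06), and the values nearest to 0 were those of Loxl1 and Loxl4 with -1.25 ± 0.15 (adjusted p = 0.000439) and -1.03 ± 0.19.

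Of 9 tested receptors and uptake genes, 5 were lower and 2 higher (median -0.79), and the share that was higher was close to the 25.2% of all genes, of which 29.6% were lower. Itgb1, the beta subunit of the collagen-binding integrins, was at 717, 538 and 734 FPKM in the ASTs and 96.0, 94.5 and 138 in the A-iSCs, with no overlap, and was lower (-2.60 ± 0.21, adjusted p = 6.24e-05), as was its partner Itga1 (-1.61 ± 0.12, adjusted p = 3.61e-05). The higher genes were Itga2 (0.81 ± 0.14) and Lair1, a collagen receptor of immune cells (1.78 ± 0.10), and both met the filter through the A-iSCs alone. The microglial markers given above were higher in A-iSCs too, and their part in the Lair1 value was not tested. The receptor tyrosine kinase gene Ddr1 and the collagen III receptor gene Adgrg1 differed by 0.13 ± 0.14 and 0.20 ± 0.11 (adjusted p = 0.466 and 0.186). Ddr1 was at 137, 131 and 138 FPKM in the ASTs and 131, 147 and 171 in the A-iSCs, which overlapped.

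Of 4 tested collagen-degrading enzymes, 2 were lower and 1 higher (median -0.45), where 29.6% and 25.2% of all genes were. The gelatinase gene Mmp2 was lower (-2.12 ± 0.11, adjusted p = 1.08e-05), and Mmp14, a membrane-bound collagenase, fell from 64.1, 60 and 59.9 FPKM in the ASTs to 43.7, 38.0 and 33.3 in the A-iSCs (-0.67 ± 0.13, adjusted p = 0.00438). The collagenase gene Mmp13, which met the filter through the A-iSCs alone, was at 2.12, 2.66 and 2.29 FPKM in the A-iSCs against 0.312, 0.0922 and 0.242 in the ASTs (1.47 ± 0.13). In the NPC groups, 16 of 19 modification genes were lower than in ASTs in P56-NPCs and 14 of 19 in P0-NPCs, beside 39.8% and 40.9% of all genes, and all 5 lysyl oxidase genes were lower in both, with medians of -3.87 and -3.26. Of these 5, 3 in P56-NPCs and 1 in P0-NPCs met the filter through the ASTs alone, as did 1 modification gene in each group.

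**Figure D5:**
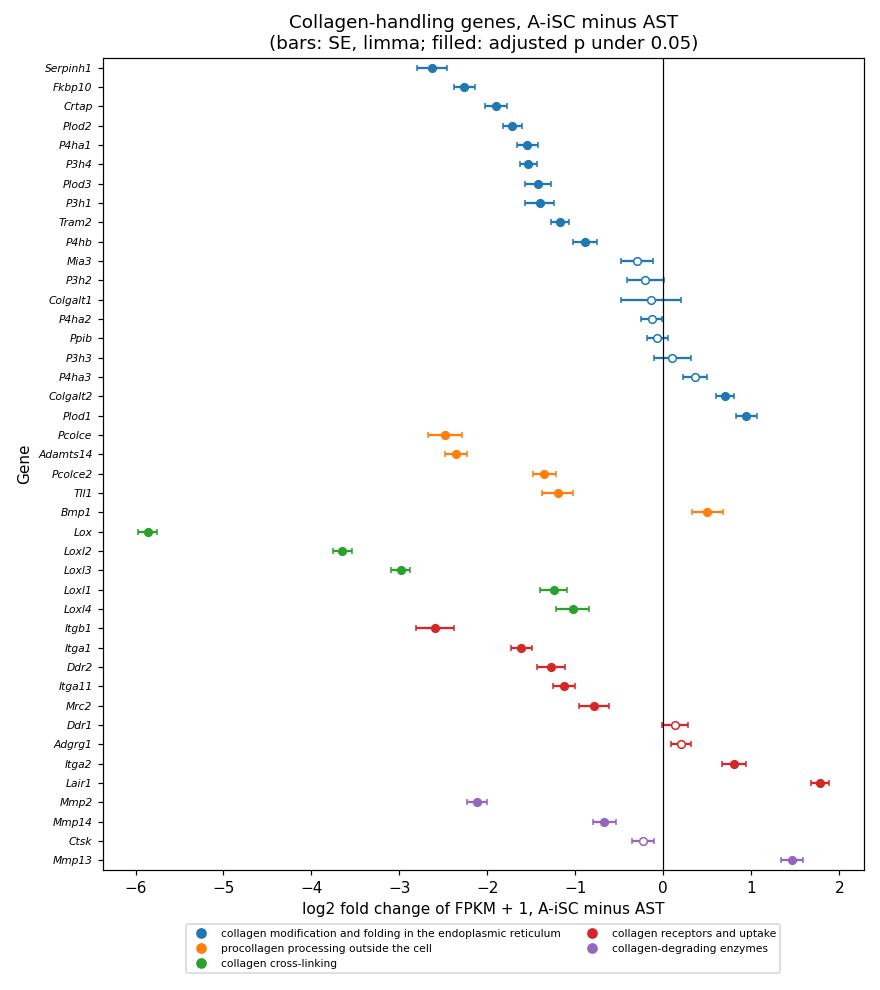
Difference in log2(FPKM + 1) between A-iSCs and ASTs (horizontal axis) for each tested gene of the 5 lists of collagen modification, processing, cross-linking, binding and degradation, with bars for the standard error and filled points for an adjusted p under 0.05. All 5 lysyl oxidase genes lie below 0, from -5.86 for Lox to -1.03 for Loxl4, and the largest value is 1.78 for Lair1. Filled points include genes that met the filter through 1 group alone, which sets their direction, among them Lox, Loxl4 and Lair1.

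The 12 collagen genes below 1 FPKM in every group were Col24a1, Col4a4, Col4a6, Col6a4, Col6a5, Col6a6, Col14a1, Col19a1, Col22a1, Col10a1, Col17a1 and Col28a1. Their highest group means ran from 0.0506 FPKM for Col6a6 to 0.854 for Col4a4. Each had at least 3 fragments in some sample, so none was below the limit of detection everywhere.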

How the data were processed

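RNA of 12 mouse samples was measured, 3 in each of 4 groups, by paired-end Illumina HiSeq sequencing of NEBNext Ultra libraries. The authors deposited FPKM for 55862 genes with gene lengths and positions per sample. The submitters' notes list Bowtie 0.12.2 and mm8, while the positions of 54985 genes, of 55240 present in GENCODE M21, were its GRCm38 positions, which are used here. The counter and its strand setting are not given in the sources used here. Each FPKM multiplied by gene length was a whole multiple of 1 step within 0.02, which gave the fragments per gene. The library sizes behind the FPKM were 0.744 to 1.22 times the fragments counted, so the values hold a scaling between samples.

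Columns were matched to samples by name. Differences were tested with limma 3.58.1 in R 4.3.3 (lmFit, eBayes with a trend) on log2(FPKM + 1) in 6 comparisons of 2 groups, over genes with a mean of at least 1 FPKM in either group, with Benjamini-Hochberg adjustment over all genes tested. The limma script was tested on simulated data. DESeq2, which the study's methods name, was not run, and limma-voom was the test used on the recovered fragments. The collagen genes, the lists and the markers were chosen with earlier results of these data known. All collagen genes with a group mean of at least 1 FPKM are named, with values per sample for up to 4 a class and for the collagen IV pairs. Of the other lists, the 2 largest and 2 smallest called values in A-iSCs against ASTs and 6 set genes are given, and genes named beyond this (values per sample of Col11a1 and Col11a2, Plod2 and single marker genes) were chosen after their values were seen. No sample was left out. Alternatives were upper-quartile scaling, scaling by fragments counted, no filter, a pseudocount of 0.1, all 4 groups in the fit, the replicate block, limma-voom on the recovered fragments and leaving out each sample. Lengths of coding transcripts, folds of mean FPKM without each sample and counts of genes that met the filter through 1 group alone were added after the data were seen. Summaries and figures were made with matplotlib 3.10.9, pandas 2.3.3 and numpy 2.4.6 under Python 3.11.15.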

Additional observations from a re-analysis of the deposited data

How the results depend on the processing

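For the collagen genes, 2126 values under an alternative were set beside 164 log2 fold changes, and 2074 kept direction and side of the threshold. None of the 150 called values changed sign, and 8 of them lost their call under some alternative. Signs turned for 7 values, none of them called. Col4a5 in A-iSCs against ASTs was 0.15 with scaling by fragments counted and 0.027 with limma-voom. In P0-NPCs against ASTs, Col2a1 was 0.22 and 0.059 under these settings, and Col6a1 was -0.047 with upper-quartile scaling. Col20a1 in A-iSCs against P56-NPCs was 0.094 with scaling by fragments counted. Leaving out 1 sample at a time gave -0.13 to 0.10 for Col2a1 and -0.027 to 0.12 for Col6a1 in P0-NPCs against ASTs, -0.073 (without A-iSC replicate 2) to 0.34 for Col27a1 and -0.61 to 0.25 (without P0-NPC replicate 1) for Col8a1 in A-iSCs against P0-NPCs, and -0.27 to 0.33 for Col9a3 in P0-NPCs against P56-NPCs. The cause was not tested.

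Against ASTs, no filter gave 11 instead of 6 collagen genes with a higher level in A-iSCs, and against P56-NPCs 13 instead of 8 with a lower one, since more genes were tested, and scaling by fragments counted gave 2 instead of 6 lower in P0-NPCs than in P56-NPCs. That scaling shifted the median of all genes by 0.19 in A-iSCs, -0.31 in P56-NPCs and 0.27 in P0-NPCs against ASTs, by 0.47 in A-iSCs and 0.53 in P0-NPCs against P56-NPCs. Upper-quartile scaling shifted it by -0.11 and -0.14 in A-iSCs and P56-NPCs against ASTs.

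The replicate numbers were not taken as pairs, because residuals of samples with the same number correlated at -0.38, 0.34 and 0.43 in A-iSCs and ASTs. With the replicate block 2 calls changed: Col4a2 became higher in P0-NPCs than in ASTs (limma, 0.32, adjusted p = 0.0478) and Col8a1 higher in P0-NPCs than in P56-NPCs (0.92, adjusted p = 0.0496). Over all genes the block gave 3694 higher and 4250 lower in A-iSCs against ASTs.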
